A study of Mus musculus with 10 samples.

Results

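The 10 genes described here code for the entry of glucose into the cell and for 7 steps that turn it into pyruvate. They were taken by symbol from the deposited count table, in which all 10 of the 10 were found among 35976 genes. Slc2a1 and Slc2a3 encode the facilitative glucose transporters GLUT1 and GLUT3, which sit in the plasma membrane. Hk1, Hk2, Gpi1, Aldoa, Gapdh, Pgk1, Eno1 and Pkm encode 8 enzymes, most of them cytosolic.

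Morulae were BDF1 x PWK mouse embryos, and the study asked how loss of Jarid2, a partner of the Polycomb repressive complex PRC2, alters expression. Single female embryos were sequenced one by one, 3 wild type (replicates 1, 2 and 3) and 3 Jarid2 knockout (replicates 1, 3 and 4). Pools of about 20 embryos formed a second set, with 2 control and 2 knockout libraries. The labels give no genotype for the control pools beyond "control", no sex for the pooled embryos, and neither the deleted exons nor the way the knockout was made. They do not say whether pools came from separate litters, so the spread between pools may be technical.

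The mouse embryo lives on pyruvate and lactate during its first cleavages and takes up and breaks down more glucose from compaction to the blastocyst. Uptake runs through GLUT1 and, on the outer surface of the trophectoderm, GLUT3. Hexokinase then traps glucose as a phosphate, and the product can go down glycolysis or into the pentose phosphate, hexosamine and glycogen branches.

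Total counts were 14830332 to 18696312 in single-embryo libraries and 41003216 to 49861963 in pools, and the 10 genes held 0.114% to 0.228% of them. Jarid2 had 580, 686 and 776 CPM (the count scaled to the library total) in wild-type single embryos and 156, 319 and 61.3 CPM in knockout replicates 1, 3 and 4 (log2 -1.92, SE 0.43, edgeR adjusted p = 0.0342). Its level was 442 and 496 CPM in the control pools and 181 and 158 CPM in the knockout pools (log2 -1.55, SE 0.18, adjusted p = 0.0792). All 10 morula markers had counts in every library, with a summed level of 2747 to 3167 CPM in wild-type and 1654 to 3057 CPM in knockout single embryos, 1477 to 1966 CPM in control pools and 1250 to 1773 CPM in knockout pools. Of 7 cumulus and granulosa cell markers, Has2, Ptx3, Fshr and Inhba were at 0 in all 10 libraries, and the list summed to at most 0.674 CPM. The 6 oocyte markers, of which Zp3 made up most, summed to 47.6 to 164 CPM in wild-type and 36.7 to 98.0 CPM in knockout single embryos. The 6 blood and stroma markers summed to at most 34.2 CPM in any library. Pecam1 made up most of that (6.64 to 33.8 CPM), and each other marker of the list had at most 1.05 CPM. The part of these markers in the results below was not tested.

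Promoter sequence was looked up because the levels of both transporters and Hk2 in every knockout single embryo lay below those in every wild-type one. RefSeq promoter windows of GRCm38.p6, from 250 bases before to 50 bases after an annotated start, matched 9 of the 10 genes, all but Slc2a3. The windows were searched on both strands for ACGTG and for the E-box CACGTG, which contains it. ACGTG is a form of the core of the hypoxia response element, through which HIF factors act on many glycolytic genes. Other forms of that core were not searched. ACGTG was found in 8 of 15 windows and in 7 of 9 genes, and CACGTG in 0 windows. Among all 32851 windows, 19.6% held ACGTG and 7.15% held CACGTG, and counted by gene 21.8% and 8.09% of 27025 genes did. Some windows of Aldoa and of Eno1 overlap each other, and the match of Aldoa is the same site in overlapping windows. The 9 genes have 15 windows, more per gene than the whole set, which gives them more room for a match by gene. Gpi1 and Eno1 had no match to ACGTG in their windows. The 3 windows shown are those of a transporter and a hexokinase with such levels (Slc2a1, Hk2) and of Pgk1, which overlapped between genotypes, with each match in capitals (CACGT is ACGTG on the other strand).
Slc2a1 (chr4:119108495-119108794, plus strand): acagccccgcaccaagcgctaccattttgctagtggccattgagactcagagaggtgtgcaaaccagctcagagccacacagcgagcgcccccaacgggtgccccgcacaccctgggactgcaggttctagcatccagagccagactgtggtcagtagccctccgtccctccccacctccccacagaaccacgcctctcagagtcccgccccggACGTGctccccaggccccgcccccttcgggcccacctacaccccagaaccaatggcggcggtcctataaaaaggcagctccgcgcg
Hk2 (chr6:82774405-82774704, minus strand): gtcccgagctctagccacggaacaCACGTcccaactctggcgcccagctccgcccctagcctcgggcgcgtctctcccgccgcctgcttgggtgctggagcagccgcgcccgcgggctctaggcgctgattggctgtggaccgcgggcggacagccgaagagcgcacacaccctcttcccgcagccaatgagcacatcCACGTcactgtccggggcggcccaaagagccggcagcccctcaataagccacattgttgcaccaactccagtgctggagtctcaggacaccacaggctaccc
Pgk1 (chrX:106186850-106187149, plus strand): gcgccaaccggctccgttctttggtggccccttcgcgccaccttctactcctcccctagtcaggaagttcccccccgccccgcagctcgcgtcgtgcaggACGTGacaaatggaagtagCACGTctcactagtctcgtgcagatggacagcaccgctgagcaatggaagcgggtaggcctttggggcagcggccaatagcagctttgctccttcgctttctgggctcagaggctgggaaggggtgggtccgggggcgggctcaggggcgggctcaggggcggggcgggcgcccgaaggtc
Slc2a1 had its match 36 bases before the start and Hk2 had matches 226 and 52 bases before it. Pgk1 had matches 150 and 131 bases before the start. Genes with matches thus included Slc2a1 and Hk2 as well as Pgk1 and Gapdh. A match is a description of the letters in these windows only.

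Both transporter genes fell in knockout single embryos, and none of the 8 enzyme genes passed the test. Slc2a3 (chromosome 6, 122727809 to 122802363) had 647, 368 and 797 CPM in wild-type replicates 1, 2 and 3. In knockout replicates 1, 3 and 4 it had 74.3, 154 and 123 CPM. The lowest wild type lay above the highest knockout by more than 2 times. The mean fell from 604 ± 217 to 117 ± 40.2 CPM (SD, n = 3). The fitted log2 change was -2.35 (SE 0.32; 5.09-fold lower) by edgeR's quasi-likelihood test, with a Benjamini-Hochberg adjusted p = 0.012.

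Slc2a1 (chromosome 4, 119108745 to 119137330) had 126, 93.1 and 75.8 CPM in wild-type replicates 1, 2 and 3. In knockout replicates 1, 3 and 4 it had 13.2, 42.0 and 27.1 CPM. The groups did not overlap, and as for Slc2a3 knockout replicate 1 was lowest and replicate 3 highest among knockouts. The mean fell from 98.2 ± 25.3 to 27.5 ± 14.4 CPM (SD, n = 3). The fitted log2 change was -1.82 (SE 0.36; 3.53-fold lower; adjusted p = 0.025 by edgeR). Since these are whole embryos, less RNA per cell cannot be told apart from fewer cells that express a gene.

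Of all 13830 genes tested in single embryos, 4.37% passed 5% by edgeR, 3.21% lower and 1.16% higher. Among the 10 genes described here, 2 were lower and 0 higher. The median log2 change of the 10 was 0.24, that of the 8 enzymes 0.26 and that of all genes tested -0.03. Groups did not overlap in 3 of the 10 genes, all lower in knockouts, against 27.9% of all genes in either direction and 15.3% lower. The same 3, Slc2a1, Slc2a3 and Hk2, had an unadjusted p under 0.05, as did 22.6% of all genes.

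The calls rested on few embryos. Without wild-type replicate 3 the adjusted p (edgeR) was 0.0607 for Slc2a3 and 0.0843 for Slc2a1, and without knockout replicate 4 it was 0.0603 and 0.0982. Slc2a1 also lost its call without wild-type replicate 1 (adjusted p = 0.107) or knockout replicate 1 (0.0649). Log2 changes stayed between -2.62 and -2.07 for Slc2a3 and between -2.19 and -1.51 for Slc2a1 whichever embryo was left out. Across every alternative run, adjusted p values spanned 4.86e-20 to 0.0607 for Slc2a3 and 1.79e-07 to 0.107 for Slc2a1. For both genes the lowest value came from edgeR without a filter on low counts, which called 1715 of all genes, against 605 in the main test.

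**Figure D1:**
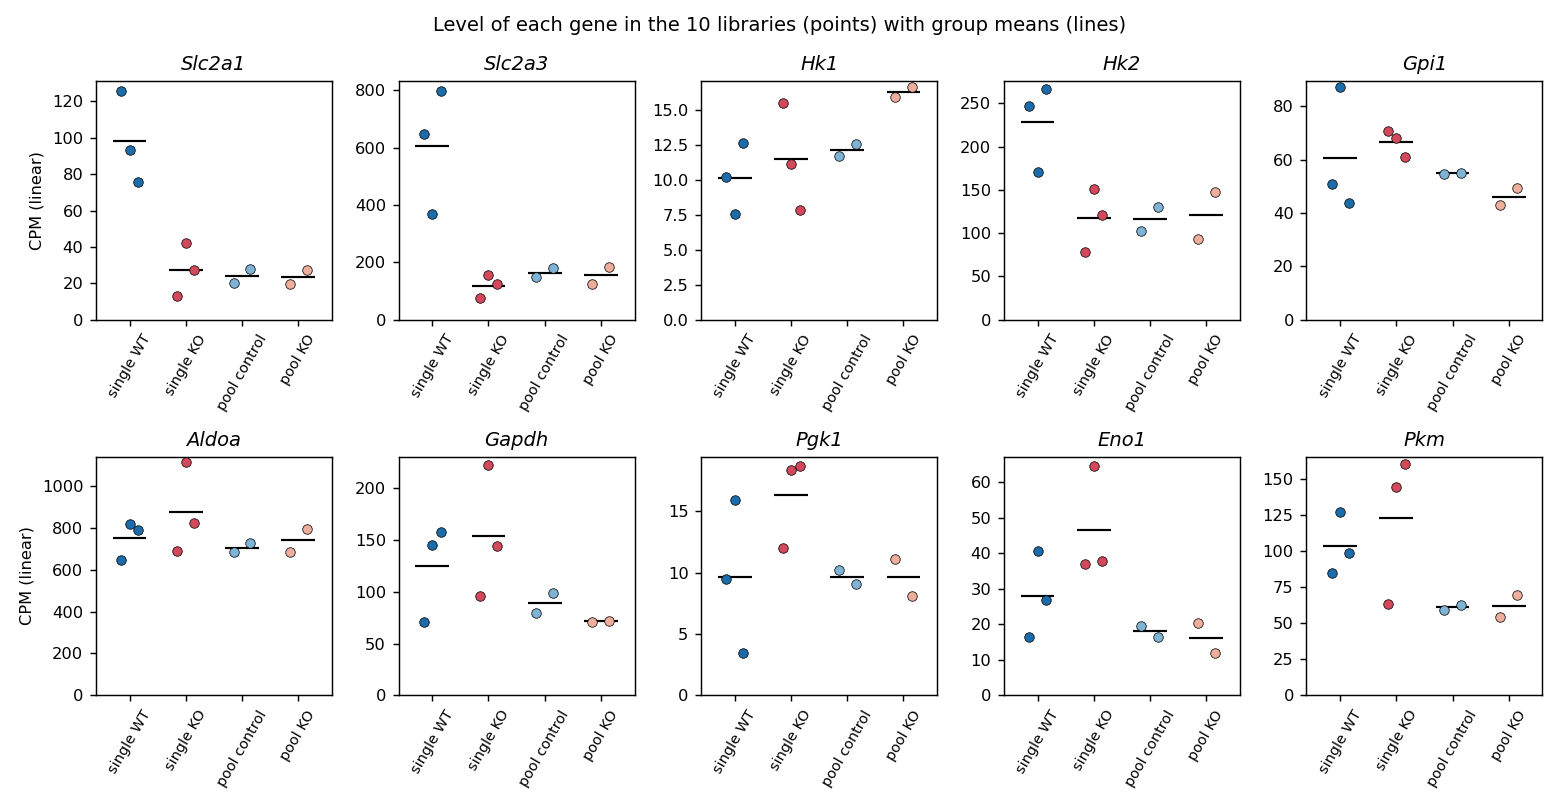
CPM of each gene on linear axes from 0, 1 point per library and a line at each group mean, for 3 wild-type and 3 knockout single embryos and 2 control and 2 knockout pools. Slc2a1, Slc2a3 and Hk2 were highest in the 3 wild-type single embryos, and the 7 other genes overlapped between those embryos and the other libraries.

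In the pools neither transporter passed the test. Slc2a3 had 149 and 180 CPM in control pools 1 and 2 and 125 and 184 CPM in knockout pools 1 and 2. Slc2a1 had 20.0 and 27.9 CPM in controls and 19.4 and 27.3 CPM in knockouts. For both genes the knockout and control pools overlapped, and the second pool of each genotype was the higher one. The log2 changes were -0.18 (SE 0.19, edgeR adjusted p = 0.908) for Slc2a3 and -0.13 (SE 0.22, adjusted p = 0.954) for Slc2a1. Of 16259 genes tested in pools 0.0% passed 5% by edgeR, with 1073 genes (6.6%) at an unadjusted p under 0.05, while DESeq2 called 61 and limma-voom 1. None of the 10 genes was called in pools by any of these tools.

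The difference between the sets was tested directly over all 10 libraries. The log2 change of Slc2a3 with knockout was less negative in pools than in single embryos by 2.15 (SE 0.47, edgeR unadjusted p = 0.000546). That of Slc2a1 was less negative in pools by 1.66 (SE 0.52, edgeR unadjusted p = 0.00762). Both had an edgeR adjusted p of 0.235, so the difference did not pass over all 15878 genes, of which 0.0063% did. At an unadjusted p under 0.05 stood 3 of the 10 genes, these and Hk2, and 14.6% of all genes. DESeq2 and edgeR without a filter on low counts each put both transporters past 5%, and their adjusted p ran from 5.12e-07 to 0.906 for Slc2a3 and from 0.0144 to 0.906 for Slc2a1 over all alternatives.

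Wild-type single embryos held the high values of both transporters. The other 7 libraries, of either genotype and set, had 13.2 to 42.0 CPM of Slc2a1 and 74.3 to 184 CPM of Slc2a3, below the lowest wild-type single embryo. Hk2 followed the same order. The other 7 of the 10 genes overlapped. Of 15878 genes, 10.1% were higher in each wild-type single embryo than in all 7 other libraries and 7.29% were lower. Among 4372 genes whose protein has a hydrophobic segment, as both transporters do (defined further on), 21.0% were higher and 127 genes lower, against 6.06% higher and 852 genes lower of 8488 without one. The sets differ in embryo number, depth and, as far as labelled, sex, and they were not tested against each other.

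Hk2 (chromosome 6, 82725025 to 82774454), the inducible hexokinase, was the enzyme gene nearest to a call. It had 247, 171 and 266 CPM in wild-type replicates 1, 2 and 3. In knockout replicates 1, 3 and 4 it had 78.5, 151 and 121 CPM. The groups did not overlap, although knockout replicate 3 lay near wild-type replicate 2. The wild-type mean was 228 ± 50.6 CPM and the knockout mean 117 ± 36.5 CPM (SD, n = 3). The log2 change was -0.94 (SE 0.26; adjusted p = 0.0632 by edgeR). It passed by DESeq2 (adjusted p = 0.0137), with a mean CPM of at least 10 (0.0279), without a filter (0.00237) and in one fit of all libraries (0.0391), and also without wild-type replicate 2 (0.0465) or knockout replicate 3 (0.0382). In that order these runs called 2006, 1287, 1715, 1667, 519 and 1316 of all genes, against 605 in the main test. Across every alternative run, the adjusted p of Hk2 lay between 0.00237 and 0.21. In pools it had 103 and 130 CPM in controls and 93.2 and 148 CPM in knockouts, a log2 change of -0.05 (SE 0.21).

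Hk1 (chromosome 10, 62268855 to 62379920), the hexokinase of most adult tissues, was far lower. It had 10.2, 7.59 and 12.7 CPM in wild-type single embryos and 15.5, 11.1 and 7.86 CPM in knockouts, which overlapped (log2 0.23, SE 0.43, edgeR adjusted p = 0.805). In pools both knockouts (15.9 and 16.6 CPM) lay above both controls (11.7 and 12.6 CPM), with a log2 change of 0.34 (SE 0.21) that did not pass (edgeR adjusted p = 0.834). Groups of pools did not overlap for 35.4% of all genes (24.3% higher and 11.1% lower), and for 3 of the 10 genes here (Hk1 higher, Gpi1 and Gapdh lower).

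The balance between the hexokinases was described by the ratio of Hk2 to Hk1 counts, each divided by exon length. Wild-type single embryos had ratios of 21.0, 19.5 and 18.2, and those of knockouts were 4.38, 11.7 and 13.3 in replicates 1, 3 and 4. In control pools it was 7.57 and 8.95 and in knockout pools 5.05 and 7.68. Hk2 was thus the main hexokinase message in every library, and the 3 wild-type single embryos had the highest ratios. The same ratio of Slc2a3 to Slc2a1 took values of 4.24, 3.26 and 8.65 in wild types and 4.63, 3.02 and 3.74 in knockouts, with overlap, and 5.31 to 6.14 in the 4 pools. Slc2a3 thus exceeded Slc2a1 in every library.

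Aldoa, whose aldolase splits fructose bisphosphate, had the highest level of the 10 genes in every group. It had 648, 818 and 793 CPM in wild-type single embryos and 691, 1118 and 824 CPM in knockouts (log2 0.25, SE 0.18, edgeR adjusted p = 0.462). In pools it had 684 and 727 CPM in controls and 685 and 797 CPM in knockouts (log2 -0.02, SE 0.16). The knockout ranges overlapped the control ranges in both sets. Knockout replicate 3 alone exceeded 1000 CPM.

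Gpi1, the isomerase between hexokinase and phosphofructokinase, had 50.7, 87.3 and 43.7 CPM in wild-type single embryos. Knockouts had 70.6, 68.2 and 61.1 CPM, all within the wild-type range (log2 0.19, SE 0.28). In pools both knockouts (42.9 and 49.4 CPM) were below both controls (54.6 and 55.1 CPM; log2 -0.34, SE 0.17, edgeR adjusted p = 0.788). The difference was larger than the spread within each pair of pools and did not pass over all genes.

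Gapdh, which oxidises glyceraldehyde phosphate, had 70.5, 145 and 158 CPM in wild-type single embryos and 96.3, 223 and 144 CPM in knockouts (log2 0.33, SE 0.33). In pools it had 79.5 and 99.2 CPM in controls and 71.0 and 72.0 CPM in knockouts. Its log2 change in pools was -0.41 (SE 0.17; unadjusted p = 0.0396 and adjusted p = 0.731 by edgeR). No other gene of the 10 had an unadjusted p under 0.05 there, against 6.6% of all genes. Across both genotypes, the CPM of this gene, often used as a constant reference, varied more than 3-fold between the lowest and highest single embryo. Its count also depends on reads that copies can share, as described further on.

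Pgk1, an X-linked gene (106187100 to 106203699) whose kinase makes the first ATP of glycolysis, had 9.51, 15.9 and 3.45 CPM in wild-type single embryos, the last from 60 counts. Knockouts had 11.99, 18.4 and 18.7 CPM, and the ranges overlapped (log2 0.82, SE 0.51, edgeR adjusted p = 0.375). The 4 pools had 8.12 to 11.2 CPM.

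Eno1, which makes phosphoenolpyruvate, had 16.3, 40.6 and 26.7 CPM in wild-type single embryos and 37.1, 64.5 and 37.9 CPM in knockouts. The log2 change was 0.77 (SE 0.36, edgeR adjusted p = 0.229), and wild-type replicate 2 lay among the knockouts. The 4 pools had at most 20.4 CPM. Pkm, the pyruvate kinase gene that closes the pathway and whose M1 and M2 forms a count per gene cannot separate, had 85.2, 128 and 99.2 CPM in wild types. Knockouts had 63.6, 145 and 160 CPM, on both sides of the wild-type range (log2 0.27, SE 0.31, edgeR adjusted p = 0.655). The 4 pools had 54.5 to 70.0 CPM of Pkm.

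**Figure D2:**
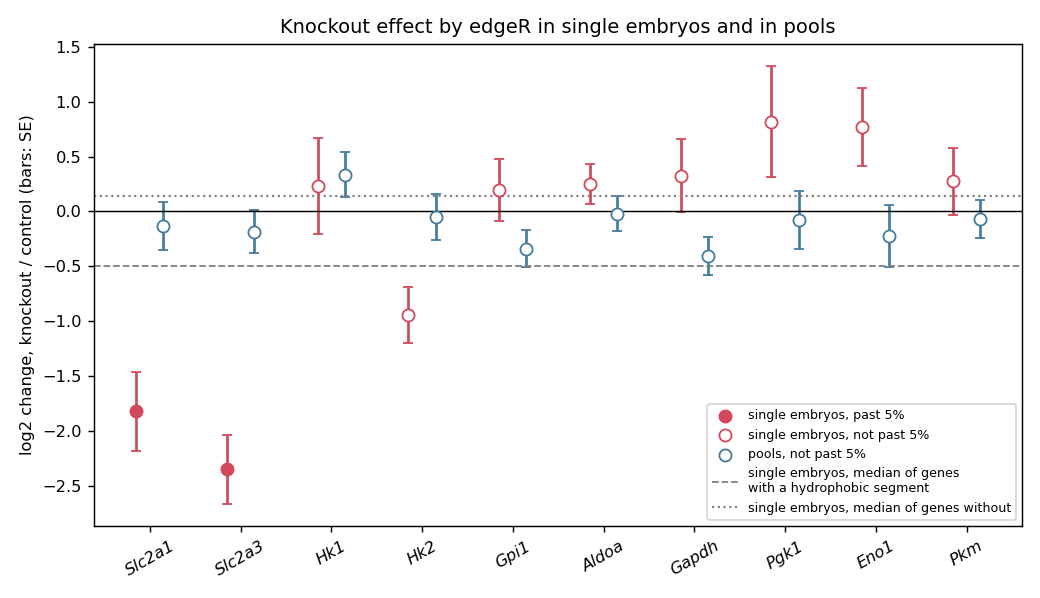
Log2 change of knockout over control (y axis, bars SE) for each gene, by edgeR in single embryos (red) and pools (blue), filled where the adjusted p passed 5%. Only Slc2a1 (-1.82) and Slc2a3 (-2.35) in single embryos are filled, and the grey lines mark the single-embryo medians of genes with (-0.49) and without (0.14) a hydrophobic segment.

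Transporters were also set against enzymes within each library, as the mean log2(CPM + 1) of the 2 transporters minus that of the 8 enzymes. Wild-type single embryos had values of 2.34, 1.25 and 1.97, and knockouts had -0.91, -0.20 and -0.34 in replicates 1, 3 and 4. Control pools had 0.10 and 0.40 and knockout pools -0.02 and 0.44. Knockout minus control was -2.34 in single embryos, where the transporter mean differed by -2.13 and the enzyme mean by 0.21. It was -0.04 in pools (transporters -0.07, enzymes -0.03). The value is given without a test, since its members were chosen with results known.

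**Figure D3:**
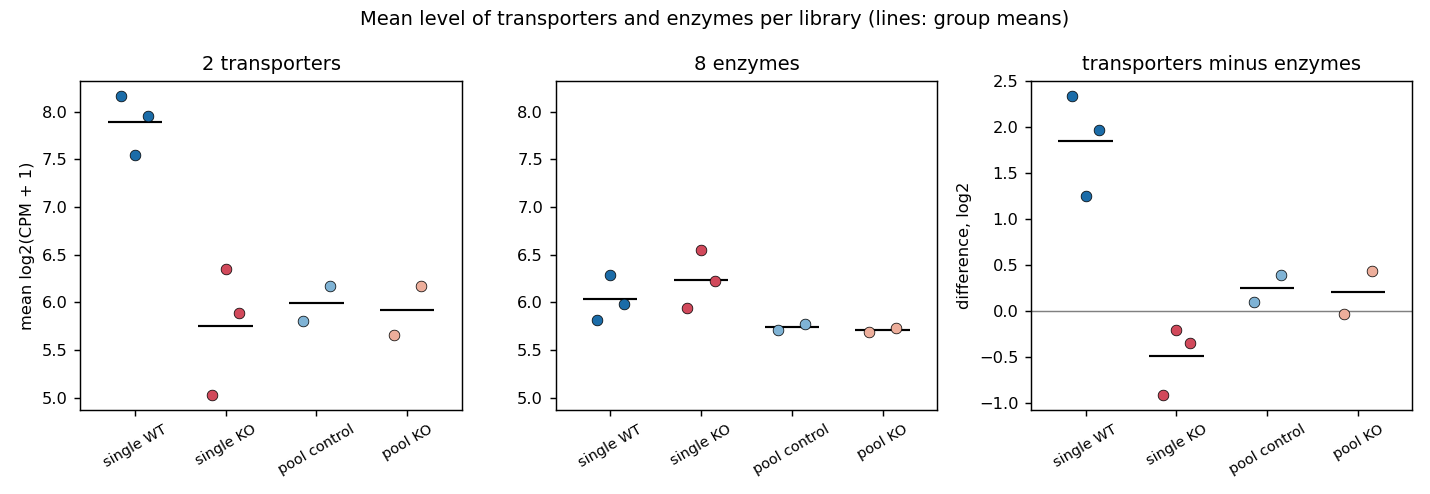
Mean log2(CPM + 1) of the 2 transporters (left) and the 8 enzymes (middle), and their difference (right), 1 point per library with lines at group means. The difference is at least 1.25 in the 3 wild-type single embryos, below 0 in the 3 knockout ones and between -0.02 and 0.44 in the 4 pools.

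Levels were compared between genes per kilobase of exon (union of GENCODE M21 basic exons). In wild-type single embryos the order was Aldoa (294 ± 35.7 CPM per kb), Slc2a3 (153 ± 54.9), Gapdh (83.3 ± 31.6), Hk2 (40.7 ± 9.01), Pkm (40.0 ± 8.30), Slc2a1 (30.1 ± 7.76), Gpi1 (21.0 ± 8.11), Eno1 (10.9 ± 4.79), Pgk1 (5.27 ± 3.41) and Hk1 (2.09 ± 0.52; all SD, n = 3). Only Aldoa was clear of the gene next to it, and all other neighbours overlapped. In knockout single embryos Slc2a3 (29.6 ± 10.1 CPM per kb, n = 3) came after Aldoa, Gapdh and Pkm, and Slc2a1 (8.42 ± 4.42) came last but for Hk1, just under Pgk1 (8.97 ± 2.08), which it overlapped. In both kinds of pool the order was the same: Aldoa, Gapdh, Slc2a3, Pkm, Hk2, Gpi1, Slc2a1, Eno1, Pgk1 and Hk1. Pkm, Hk2 and Gpi1 overlapped as neighbours there, as did Slc2a1 and Eno1 and, in knockout pools, Eno1 and Pgk1.

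The levels of 3 enzyme genes are uncertain because copies can share their reads. Of the 75-base windows of their protein-coding transcripts (the read length), 55.5% of those of Gapdh, 67.5% of those of Pgk1 and 44.3% of those of Eno1 also occurred in transcripts of other GENCODE M21 genes. Gapdh shared windows with 121 other genes, Pgk1 nearly all of its shared windows with Pgk1-rs7, and Eno1 most with its retrogene Eno1b. Eno1b itself had 6.30 ± 1.76 CPM in wild-type and 10.2 ± 3.26 CPM in knockout single embryos (SD, n = 3), in the same direction as Eno1. The share was 14.2% for Gpi1 and 14.0% for Pkm, at most 1.22% for Hk1, Slc2a1 and Aldoa, and 0% for Slc2a3 and Hk2. The handling of reads with several matches, which sets how much of these genes' signal was counted, was not stated in the labels. Hk1 overlaps the antisense gene Hk1os (at most 1.10 CPM), and the others overlap no gene of the table.

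**Figure D4:**
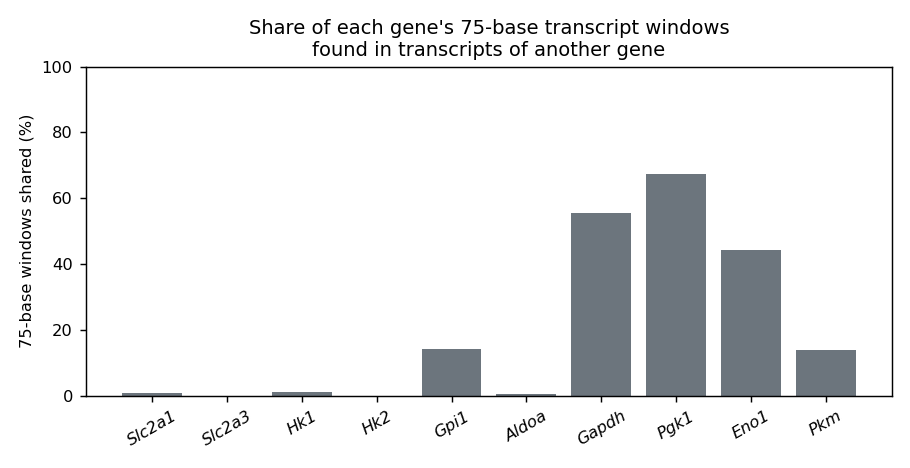
Percent of each gene's 75-base transcript windows that also occur in transcripts of another gene (bars from 0). Pgk1 (67.5%), Gapdh (55.5%) and Eno1 (44.3%) stand out, and the transporters and Hk2 are at or below 0.85%.

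The transporters differ from the enzymes in protein class, and this class moved in the single embryos. A hydrophobic segment was taken as a stretch of 19 residues with a mean Kyte-Doolittle hydropathy of at least 1.6 in the longest annotated protein. GLUT1 and GLUT3 had 9 and 10 such stretches without overlap and maxima of 2.68 and 2.85, while 6 enzymes had none, and Gpi1 (1.62) and Pkm (1.61) had 1 each just over the limit. In single embryos 9.93% of 3825 genes with a segment were lower and 0.366% higher in knockouts, against 0.675% and 1.76% of 7857 genes without one. The medians were -0.49 and 0.14 on the log2 scale in single embryos, and 0.01 and -0.01 in pools. At a minimum of 2.0, an alternative chosen after seeing the data, the shares lower were 13.6% of 2253 genes and 1.34% of 9429, and Gpi1 and Pkm had no segment.

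Within the class, the change of Slc2a3 was the 74th lowest and that of Slc2a1 the 192nd lowest of 3825. Set against the class median, Slc2a3 was lower by a log2 difference of -1.86 and Slc2a1 by -1.33. Gpi1 and Pkm lay 0.69 and 0.77 above the median of the same class. Hk2, without a segment, lay at -1.08 from the median of its own class (579th lowest of 7857). Per library, against the mean of all 10, the class gap (segment minus none) stood at 0.37, 0.23 and 0.27 in wild-type embryos and -0.22, -0.12 and -0.22 in knockouts, and -0.14 to -0.03 in pools. The part of the class shift in the transporter result was not tested.

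The rest of glucose metabolism was read from 6 lists of 81 genes, of which 70 were tested in single embryos. By edgeR 3 of them fell and 4 rose there (3.21% and 1.16% of all genes did). In these embryos 17 of the 70 had an edgeR unadjusted p under 0.05, against 22.6% of all genes. In pools 0 of 73 passed by edgeR (6 at an unadjusted p under 0.05, and 0.0% of all genes passed). In the difference between sets 0 of 72 passed (edgeR), with 13 at an unadjusted p under 0.05, as had 14.6% of all genes.

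Among 7 other hexose and related transporters tested, 2 fell and 0 rose. Of all genes tested 3.21% fell and 1.16% rose, and of those with a hydrophobic segment 9.93% fell and 0.366% rose. The median log2 change of the 7 was -1.31, against -0.03 for all genes and -0.49 for genes with a hydrophobic segment. Apart from Slc2a8 and Slc5a11, those tested had at most 153 counts in any library. Slc2a8, an intracellular glucose transporter, fell from 188 ± 32.6 to 74.2 ± 23.6 CPM (SD, n = 3; log2 -1.31, SE 0.25, edgeR adjusted p = 0.0216). Slc5a11, a sodium-coupled transporter of myo-inositol, fell from 286 ± 32.7 to 124 ± 36.8 CPM (log2 -1.16, SE 0.24, adjusted p = 0.0275). Both genes have a hydrophobic segment, and they ranked 577th and 784th lowest of the 3825 genes with one. In control pools they had 60.7 ± 7.60 and 121 ± 17.8 CPM (SD, n = 2), and both were higher in each wild-type single embryo than in the 7 other libraries. In pools their log2 changes were 0.02 (SE 0.18) and 0.15 (SE 0.18). Slc2a4, the insulin-responsive transporter, did not pass (log2 -1.93, adjusted p = 0.272), and Slc2a2, the liver transporter, had at most 3 counts in any library.

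Among 16 other glycolytic enzymes tested, 1 fell and 2 rose, with a median of 0.19. Adpgk, the ADP-dependent glucokinase of the endoplasmic reticulum, fell from 64.8 ± 17.3 to 28.1 ± 2.79 CPM (SD, n = 3; log2 -1.16, SE 0.28, edgeR adjusted p = 0.0439). It has a hydrophobic segment at the minimum of 1.6 (maximum 1.89) and ranked 797th lowest of the 3825 genes with one. Ldha, which turns pyruvate into lactate, rose from 15.96 ± 2.37 to 45.9 ± 10.4 CPM (log2 1.59, SE 0.31, adjusted p = 0.0248). The longest annotated protein of Ldha has 1 segment over the limit (2.27), against 12 in Slc2a8 and 11 in Slc5a11. The rise of Ldha ran against the median of that class, which 1 segment is enough to enter. Pgam2, the muscle form of phosphoglycerate mutase, rose from 9.01 ± 5.35 to 34.4 ± 7.22 CPM (log2 1.97, SE 0.48, adjusted p = 0.0437).

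Of 19 regulators of glycolysis and glucose uptake and 8 pentose phosphate genes, 0 passed in single embryos by edgeR. At an edgeR unadjusted p under 0.05 stood 3 and 2 of them, against 22.6% of all genes. The medians were 0.09 and 0.05. Hif1a, which encodes the oxygen-regulated activator of glycolytic genes, was at -0.02 and Txnip, whose protein lowers glucose uptake, at 0.10. These 2 genes and Slc2a2 and Slc2a4 above were chosen with their values in view. In pools Txnip was at 1.09 (SE 0.37, edgeR adjusted p = 0.645). Of 7 hexosamine genes 1 rose, Gnpnat1, the acetyltransferase of the pathway, from 179 ± 49.3 to 385 ± 68.0 CPM (SD, n = 3; log2 1.16, SE 0.26, edgeR adjusted p = 0.0343). Its value is uncertain, since 67.8% of its windows are shared with other genes, most with Styx. Of 13 glycogen and glucose phosphate genes 1 rose, Gyg, the glycogenin that primes glycogen, from 0.608 ± 0.26 to 7.67 ± 4.22 CPM (log2 3.65, SE 0.75, adjusted p = 0.0271). The wild-type level of Gyg rests on only 5, 15 and 11 counts in replicates 1, 2 and 3.

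Gnpnat1, Gyg and Pgam2 were lower in each wild-type single embryo than in the 7 other libraries, and Slc2a8, Slc5a11 and Adpgk were higher in each, while Ldha (13.7 to 18.4 CPM against 13.7 to 54.9 CPM) overlapped. Over all genes 7.29% were lower and 10.1% higher in this way, and these 7 had been picked for their difference within the single embryos. Each of these 7 calls was lost without wild-type replicate 1 or 3, or without knockout replicate 1 or 4, where adjusted p ran from 0.0532 to 0.196. Those of Pgam2 (0.0605), Adpgk (0.0571) and Gyg (0.0531) were also lost without knockout replicate 3. Adpgk (adjusted p = 0.052 with DESeq2 size factors), Pgam2 (0.0511 with library totals only) and Gyg (0.0824 by limma-voom) also fell short under those settings.

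**Figure D5:**
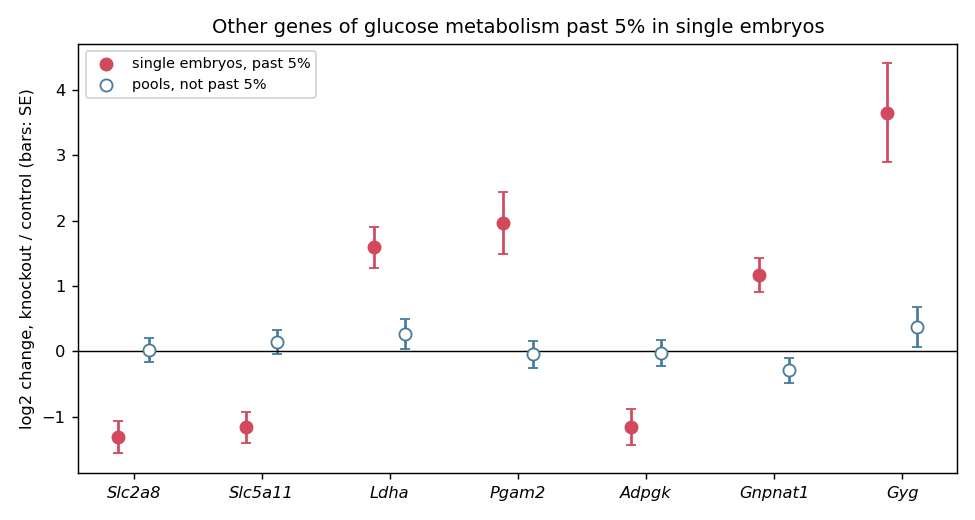
Log2 change of knockout over control (y axis, bars SE) by edgeR for the 7 genes of the wider lists that passed 5% in single embryos (red), with their values in pools (blue). The 3 genes that fell in single embryos and the 4 that rose all lie between -0.29 and 0.37 in pools, where none passed.

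Each transporter was compared with 7629 other genes by Pearson's r of log2(CPM + 1) over the 10 libraries. Only genes with a mean of at least 10 CPM were ranked, and pseudogenes and genes with predicted or clone-type symbols were left out. The genes most like Slc2a1 were Mlec (0.995), Ptpra (0.992), Ghdc (0.990), the noncoding RNA gene Firre (0.986) and Scd1 (0.985). For Slc2a3 they were the taurine transporter gene Slc6a6 (0.982), Sgpl1 (0.980), Epcam (0.980), Tmem131 (0.979) and Pikfyve (0.976). The points share the 2 sets and the high values of both transporters in the 3 wild-type single embryos, so the values are a description with no test. Of the 10 genes 9 encode proteins with a hydrophobic segment, against 3825 of the 11682 genes with a protein tested in single embryos. Such genes were also the more frequent among those higher in each wild-type single embryo than in the 7 other libraries (917 with a segment, 514 without). Past 5% in single embryos stood 8 of the 10, against 4.37% of all genes. Neither count is a test, since the 10 were picked for following genes that had differed in the same embryos. The transporters correlated at 0.913 with each other, which put Slc2a3 at rank 378 for Slc2a1 and Slc2a1 at rank 208 for Slc2a3.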

How the data were processed

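The deposited table holds whole-number read counts per gene for 10 libraries, without normalization, as the values show. Per the labels' protocols, cDNA was made with SMART-Seq v4, libraries with Nextera XT; reads were single-end, of 75 bases. The submitters' processing notes name mm10, RSEM 1.3.1, STAR 2.7.6a and fastp 0.21.0. Not given in the sources used here: the counting tool, annotation, strand setting and handling of reads with several matches.

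The main test was that of edgeR 4.0.16 in R 4.3.3 (filterByExpr, TMM, quasi-likelihood F test, two-sided, Benjamini-Hochberg over all genes tested, 5%), each set by itself, and the difference between sets over all 10 libraries. DESeq2 1.42.0, limma-voom (limma 3.58.1), other scalings and filters, a robust fit, a replicate block and left-out libraries were alternatives. Standard errors came from the log2 change and its F value.

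Named genes were the 10 genes, Jarid2, list genes past 5% (at most 6 per list and comparison) and the 5 genes most like each transporter. Hif1a, Txnip, Slc2a2 and Slc2a4 were named outside this rule, with their values seen. These genes, lists and tests were chosen with earlier results of these data known. Coordinates and promoters came from RefSeq GRCm38.p6, which mm10 stands for, and exon lengths from GENCODE M21. With no protein table at hand, hydropathy was computed from translated GENCODE M21 coding sequences, which covered 84.5% of the genes tested in single embryos. Without molecular identifiers, reads are not independent molecules.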

Additional observations from a re-analysis of the deposited data

How the results depend on the processing

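Over 160 refits of the 10 genes in single embryos, 147 kept the direction and side of the threshold, 6 lost a call, 6 gained one (Hk2) and 1 changed sign. The number of these genes called in single embryos was 2, and 0 to 3 with 1 library left out (0 when wild-type replicate 3 or knockout replicate 4 was missing). For the difference between sets it was 0, but 2 by DESeq2 and 2 without a filter. The transporter level minus enzyme level differed by -2.64 to -2.09 between genotypes in single embryos with 1 library left out, and by -0.27 to 0.19 in pools.

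Over all genes, 605 passed in single embryos (161 higher, 444 lower; 301 and 423 with upper quartile scaling, 954 and 1052 by DESeq2, 506 and 781, 728 and 987, and 791 and 876 under the 3 settings named after it), against 2006 by DESeq2, 1287 with a mean CPM of at least 10, 1715 without a filter, 1667 in one fit of all libraries and 1 to 1316 with 1 library left out (1 without wild-type replicate 3 or knockout replicate 4, 1316 without knockout replicate 3). In pools 0 passed, against 61 by DESeq2, 1 by limma-voom, 170 without a filter and 25 to 379 with 1 library left out. For the difference 1 passed, against 420 by DESeq2, 548 without a filter and 0 to 2 with 1 library left out. The cause was not tested.

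The labels do not say whether same-numbered libraries share more than a number. Their deviations from group means correlated at -0.01 and -0.08 in single embryos and at 0.32 in pools. Pools of unlike number correlated at -0.32, which with 2 pools per genotype is the mirror of that value. Whether same-numbered pools were prepared together was not tested. With the replicate block 187 genes passed in single embryos and 39 in pools. In single embryos wild-type replicate 2 and knockout replicate 4 have no partner of the same number. The blocked change thus rests on replicates 1 and 3 of each genotype and cannot show that a call is stable. Slc2a1 (-2.02, edgeR adjusted p = 0.0404) and Slc2a3 (-2.73, 0.000109) were past 5% with this block. Slc2a8, Slc5a11, Ldha, Adpgk, Gnpnat1 and Gyg were not (0.105 to 0.251).

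Small log2 changes that passed no test changed sign. In pools Hk2 had 0.0155 with a mean CPM of at least 10, 0.0504 with library totals only and 0.00097 with upper quartile scaling, Aldoa 0.0407, 0.0712 and 0.0284, Pgam2 0.00996, 0.0341 and 0.0018, and Adpgk 0.0336, 0.0643 and 0.0226. With library totals only Pgk1 had 0.0017 and Pkm 0.0279, and Slc2a8 had -0.0052 by DESeq2 and -0.0015 with its size factors. With 1 library left out the values in pools ran from -0.33 to 0.0931 for Slc2a1, -0.41 to 0.0105 for Slc2a3, -0.34 to 0.19 for Hk2, -0.0636 to 0.0207 for Aldoa, -0.40 to 0.19 for Pgk1, -0.74 to 0.16 for Eno1, -0.19 to 0.0424 for Pkm, -0.0905 to 0.12 for Slc2a8, -0.0120 to 0.29 for Slc5a11, -0.29 to 0.16 for Pgam2 and -0.20 to 0.16 for Adpgk. Hk1 took values of -0.11 to 0.45 in single embryos, and of -0.15 to 0.42 for the difference. In pools a left-out library leaves 1 genotype with a single library, assumed to vary like the others. Library totals alone put the median over all genes at 0.21 for the difference, against 0.05 with TMM, and other scalings moved it by less than 0.1. Pgk1 had a mean under 10 CPM in pools and was not tested at that minimum.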
